A study of Mus musculus with 24 samples.

Results

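The genes described here supply activated sulfate to a cell or place it on proteins and small molecules. They are 7 mouse genes, chosen by name: the sulfate transporter Slc26a2, the PAPS synthases Papss1 and Papss2, the Golgi PAPS transporter Slc35b2, the cytosolic sulfotransferase Sult1a1 and the tyrosylprotein sulfotransferases Tpst1 and Tpst2. All 7 were found among the 36528 gene models counted, and all 7 passed the filter on low counts in every comparison. RNA came from cells sorted out of mouse Peyer's patches, the lymphoid follicles of the small intestinal wall. High endothelial venule (HEV) endothelial cells, which form the vessels that lymphocytes leave the blood through, made up 6 libraries from mice given polyethylene glycol (PEG) and 4 from unperturbed control mice. Fibroblastic reticular cells (FRC), the fibroblasts that build the scaffold of the patch, made up 7 PEG and 7 control libraries. PEG was given at 10% (w/v) in freely taken drinking water for 3 days, to lower fluid flow. For each mouse 1000 cells of a type were sorted and polyadenylated RNA was sequenced. Strain, genotype, age and the sorting gates are not given in the sources used here, nor whether an HEV and an FRC library came from 1 mouse, so all libraries were compared as independent samples.

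Before it can be used, sulfate is carried into the cell and joined to ATP by a PAPS synthase, which makes 3'-phosphoadenosine 5'-phosphosulfate (PAPS), the donor for every sulfotransferase. Cytosolic sulfotransferases put this sulfate on phenols, steroids and other small molecules. The Golgi enzymes receive PAPS through a membrane transporter and sulfate tyrosines and sugar chains of secreted and surface proteins. High endothelial venules are known for such sulfation, since the L-selectin ligands on their mucins carry sulfated sugars and venules take up sulfate avidly.

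Depth ran from 3115003 to 19948766 reads in genes in HEV PEG libraries, from 14392146 to 17160900 in HEV control, from 15823379 to 21710946 in FRC PEG and from 12416032 to 18052362 in FRC control. HEV PEG 16 held the 3115003 reads. Marker genes matched the sorted cell types. The mean log2(CPM + 1) of 10 endothelial markers was 8.87 to 9.24 in HEV libraries and 1.27 to 3.83 in FRC libraries, and that of 10 FRC markers was 0.48 to 2.32 in HEV libraries and 9.65 to 10.3 in FRC libraries (CPM, is scaled here by all reads in genes of a library). FRC libraries also carried 8 smooth muscle and pericyte markers at 7.42 to 8.12, against 0.77 to 4.37 in HEV libraries. The level of 16 intestinal epithelium markers varied in every group, from 0.70 to 6.57 in HEV PEG, 0.59 to 4.04 in HEV control, 1.34 to 7.25 in FRC PEG and 0.52 to 5.29 in FRC control. Libraries 1 to 9 stood apart from libraries 10 to 24 on the first principal component of log2(CPM + 1) within each cell type: they scored -82.1 to -63.9 in HEV, against -5.52 to 58.1 for libraries 10 to 24, and -70.2 to -31.0 in FRC, against 11.4 to 67.3. Values of HEV against FRC are therefore also given for the 2 sets of libraries alone, with no pool covariate in the fits of libraries 1 to 9. In control, libraries 1 to 9 hold only HEV controls 8 and 9, and libraries 10 to 24 only HEV controls 17 and 24. A call lost in a set cannot tell the smaller number of libraries from a difference between the sets. Under PEG, HEV PEG 7 is the only HEV library of libraries 1 to 9, so that set was not fitted. Under PEG the cell type and the i5 index of the library cannot be told apart: all 6 HEV libraries carry 1 such index and all 7 FRC libraries another.

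The 2 cell types held different enzymes of the pathway at their highest levels. Compared per length, on the deposited size-factor-adjusted RPKM scale, Sult1a1 was the highest of the 7 in HEV, at 197 ± 79.9 RPKM in HEV PEG (SD, n = 6) and 209 ± 47.0 in HEV control (n = 4). Tpst2 followed at 77.0 ± 10.7 in HEV PEG and 94.4 ± 12.9 in HEV control. In FRC the highest was Tpst1, at 82.6 ± 17.9 RPKM in FRC PEG (n = 7) and 61.8 ± 27.0 in FRC control (n = 7), followed by Slc35b2 at 44.1 ± 8.72 and 44.0 ± 4.98. The lowest member was Tpst1 in HEV, at 0.81 ± 1.45 RPKM under PEG and 1.61 ± 1.23 in control, and Slc26a2 in FRC, at 3.28 ± 2.68 and 1.90 ± 1.59. The RPKM of Slc26a2 rests on a gene length that the files do not give: the length they imply is 4881 bases on the scale of the other genes, against 12370 exonic bases in the GENCODE annotation.

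**Figure D1:**
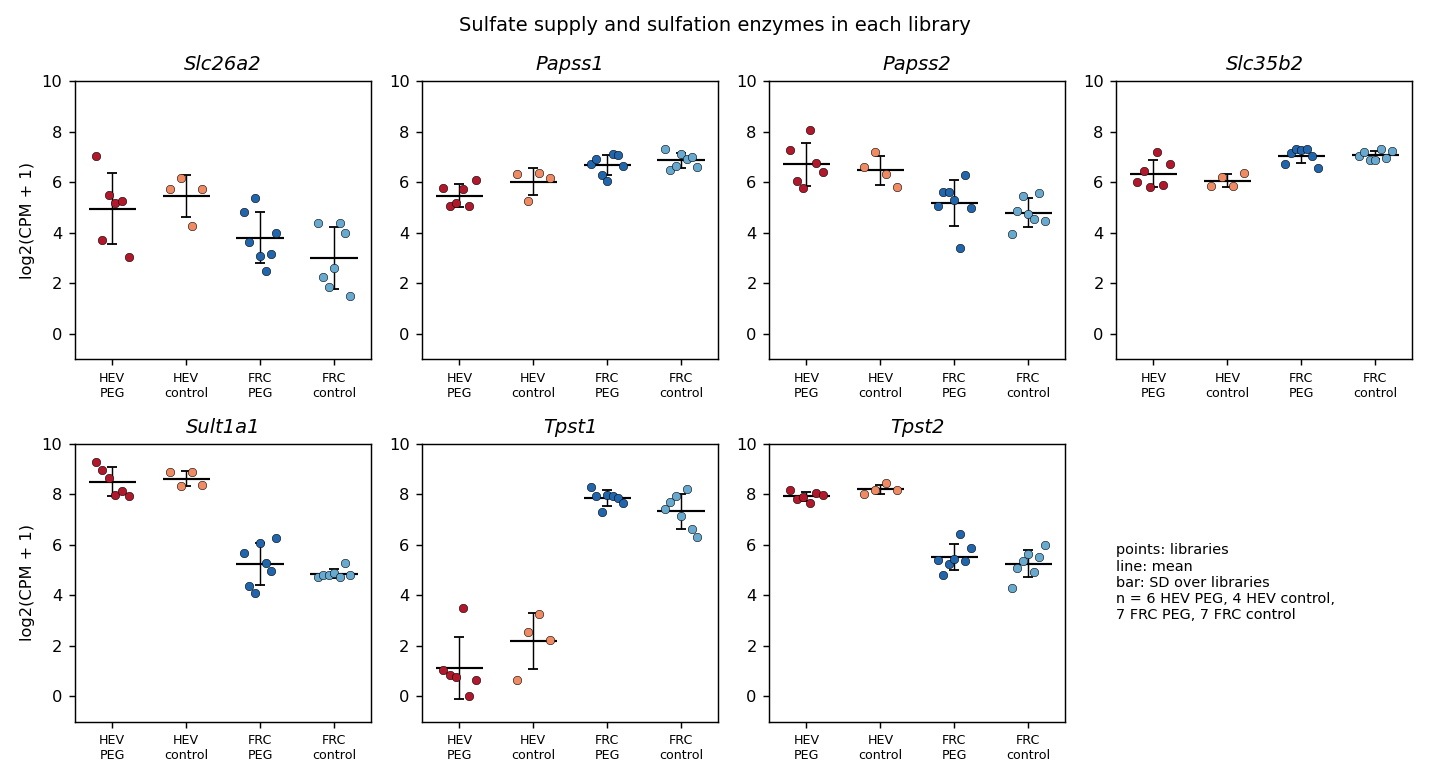
Level of each of the 7 genes in each library, as log2(CPM + 1), with HEV PEG, HEV control, FRC PEG and FRC control from left to right; the line is the mean and the bar the SD over libraries. Sult1a1, Tpst1 and Tpst2 show no overlap between the HEV and FRC libraries, whereas Slc26a2 ranges widely within each group. The share of all genes with no such overlap was not computed.

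With no PEG, 6 of the 7 genes differed between HEV and FRC at an adjusted p under 0.05 (edgeR quasi-likelihood test, Benjamini-Hochberg over 15743 genes), 4 higher and 2 lower in HEV. Of all genes tested, 24.5% passed, 10.6% higher and 13.9% lower. Under PEG, in libraries that share none with the control comparison, 6 of 7 passed again, 4 higher and 2 lower, against 26.8% of 14991 genes, 12.5% higher and 14.4% lower. The 4 higher genes were Slc26a2, Papss2, Sult1a1 and Tpst2 in both comparisons. Tpst1 was lower in both, Slc35b2 passed as lower in control alone and Papss1 as lower under PEG alone. The median log2 fold change of the 7 was 1.78 in control and 1.76 under PEG, and that of all genes was -0.14 and -0.08. The 7 were chosen with earlier results of these data known, so these counts describe them and test nothing about the set. In bulk RNA, fewer cells of a type and less RNA per cell cannot be told apart.

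**Figure D2:**
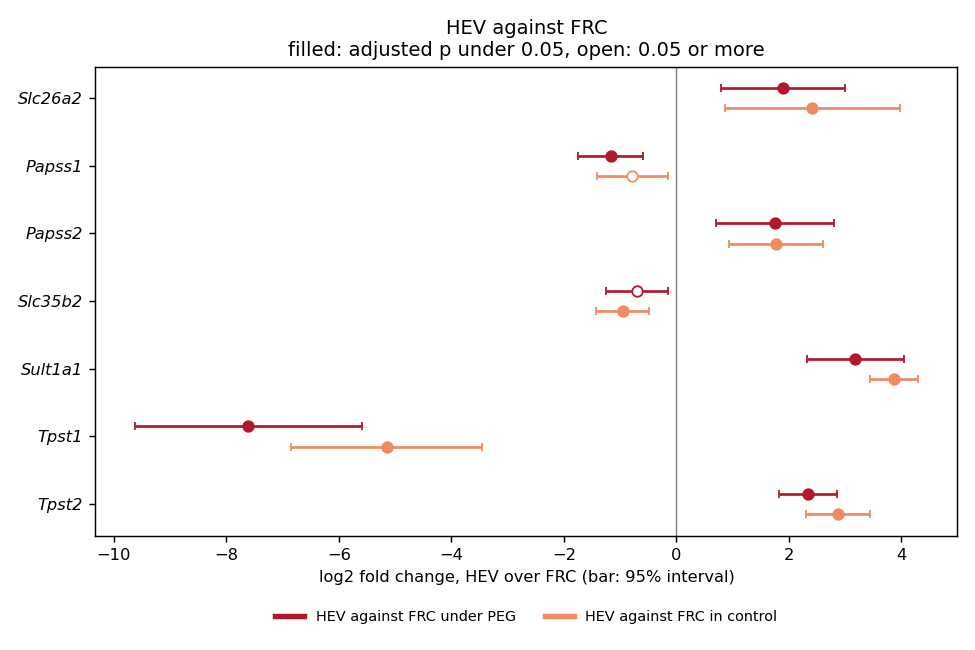
Log2 fold change of HEV over FRC for each gene, under PEG (upper mark) and in control (lower mark), with 95% confidence intervals from the edgeR fit. Filled marks have an adjusted p under 0.05: Slc26a2, Papss2, Sult1a1 and Tpst2 lie to the right of 0 and Tpst1 to the left in both.

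Slc26a2, an anion exchanger of the plasma membrane that brings sulfate into the cell, was higher in HEV but variable in every group. It had 7.27, 36.0 and 130 CPM as the lowest, median and highest of the HEV PEG libraries, and 18.1, 51.6, 52.1 and 69.8 CPM in the 4 HEV controls. FRC PEG libraries had 4.62, 11.5 and 40.5 CPM as lowest, median and highest, and FRC controls 1.78, 5.15 and 20.1. The groups overlapped in both treatments, since HEV control 17 lay below FRC control 4, and 4 of the 6 HEV PEG libraries lay below FRC PEG 3. In control the fold change was 5.36 (log2 2.42 ± 0.71, SE; adjusted p = 0.028, edgeR), with 47.9 ± 21.6 CPM in HEV (SD, n = 4) and 9.69 ± 8.20 in FRC (n = 7). Under PEG it was 3.72 (log2 1.90 ± 0.51; adjusted p = 0.013), with 44.2 ± 44.4 CPM in HEV (n = 6) and 16.4 ± 13.0 in FRC (n = 7). Both calls rest on few libraries. The control call was lost without HEV control 8 (adjusted p = 0.11), HEV control 9 (0.096), HEV control 24 (0.075) or FRC control 12 (0.052), with log2 fold changes of 2.22 to 2.36, and the PEG call without HEV PEG 7 (adjusted p = 0.079). In libraries 10 to 24 alone the log2 fold change was 2.20 ± 1.14 in control (adjusted p = 0.26) and 1.75 ± 0.66 under PEG (0.087), and in libraries 1 to 9 alone 2.83 ± 0.99 in control (0.14).

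The PAPS synthases Papss1 and Papss2 each join the ATP sulfurylase and APS kinase steps in 1 protein, and they were unequally spread over the cell types. Papss2 was the higher in HEV relative to FRC. HEV PEG libraries had 53.5, 94.9 and 269 CPM as lowest, median and highest, and the HEV controls 55.1, 78.8, 95.04 and 144 CPM. FRC PEG libraries had 9.55, 38.0 and 76.0 CPM, and FRC controls 14.3, 25.6 and 46.0. All 4 HEV controls lay above all 7 FRC controls, while under PEG the ranges overlapped. The fold change was 3.43 in control (log2 1.78 ± 0.38, SE; adjusted p = 0.0051, edgeR) and 3.38 under PEG (log2 1.76 ± 0.49; adjusted p = 0.015). HEV PEG 16, with the 269 CPM, was also the shallowest library. Its epithelial marker level was 5.91, against 0.70, 1.64, 4.68, 4.97 and 6.57 in the other HEV PEG libraries. Its lymphatic endothelium marker level was 4.19, against 1.99 to 2.78 in the others. Whether these levels bear on its Papss2 was not tested. Without it the log2 fold change under PEG was 1.35, still past the threshold, and without HEV PEG 7 the call was lost (adjusted p = 0.059, log2 1.77). In libraries 10 to 24 alone Papss2 had a log2 fold change of 1.13 ± 0.51 in control (adjusted p = 0.20) and 1.76 ± 0.67 under PEG (0.092), and in libraries 1 to 9 alone 2.13 ± 0.54 in control (0.063).

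Papss1 ran the other way. Its lowest, median and highest values were 32.2, 43.0 and 65.9 CPM in HEV PEG, and the 4 HEV controls had 36.7, 70.5, 79.0 and 80.9. FRC PEG libraries had 64.9, 104.8 and 138 CPM, and FRC controls 89.3, 118 and 156. Every HEV control lay below every FRC control, and under PEG only HEV PEG 23 and FRC PEG 10 crossed. The fold change passed under PEG, where Papss1 was 2.25-fold lower in HEV (log2 -1.17 ± 0.27, SE; adjusted p = 0.0046, edgeR), and not in control (log2 -0.78 ± 0.29; 95% interval -1.41 to -0.15; adjusted p = 0.072). In control it was -0.49 without HEV control 9 (adjusted p = 0.23), -0.43 in libraries 10 to 24 alone (0.40) and -0.94 in libraries 1 to 9 alone (0.29). Under PEG it was -1.25 ± 0.33 in libraries 10 to 24 alone (adjusted p = 0.019, edgeR). Over both treatments together, an average over all 24 libraries chosen after the data were seen, the log2 fold change was -0.95 ± 0.19 (adjusted p = 2.0e-04), in a fit that called 37.4% of 18203 genes, 20.9% of them as lower.

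Promoters of the PAPS synthases are shown because the 2 genes part between the cell types. Each is 300 bases, from 250 before to 50 after the first of 2 listed transcript starts, on the strand of the gene, from RefSeq on GRCm38.p6. Capitals mark a GC box, GGGCGG or its reverse complement CCGCCC. Papss2 lies at chr19:32595465-32595764 on the plus strand, and Papss1 at chr3:131564518-131564817 on the plus strand.
Papss2: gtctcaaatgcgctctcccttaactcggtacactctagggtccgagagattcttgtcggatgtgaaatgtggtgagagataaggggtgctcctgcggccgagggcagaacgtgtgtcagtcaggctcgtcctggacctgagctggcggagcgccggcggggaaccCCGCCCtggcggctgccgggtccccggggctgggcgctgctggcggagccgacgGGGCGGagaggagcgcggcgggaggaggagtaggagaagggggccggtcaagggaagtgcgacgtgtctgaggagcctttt
Papss1: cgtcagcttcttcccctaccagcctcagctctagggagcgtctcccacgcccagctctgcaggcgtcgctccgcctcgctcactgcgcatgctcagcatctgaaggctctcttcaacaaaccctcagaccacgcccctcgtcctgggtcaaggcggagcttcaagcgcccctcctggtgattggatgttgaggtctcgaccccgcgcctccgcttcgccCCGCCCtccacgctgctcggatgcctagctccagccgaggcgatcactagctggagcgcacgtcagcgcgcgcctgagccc
Both windows are 66.3% G and C with 27 CpG, against medians of 52.7% and 7 over 32851 promoters of the same length. Papss2 holds 2 GC boxes and Papss1 holds 1, and 35.7% of all promoters hold at least 1. The other motifs searched on both strands were a TATA box (TATAAA, in 13.6% of promoters), an ETS site (CCGGAAG, 8.86%), an E-box (CACGTG, 7.15%) and an AP-1 site (TGANTCA, 7.81%), and neither window holds one. Of the 7 genes, 6 have a promoter in this table; Slc26a2 is named only.

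Slc35b2, the carrier that moves PAPS from the cytosol into the Golgi, was lower in HEV in control. Levels were 54.4, 75.1 and 144 CPM as lowest, median and highest in HEV PEG, and 56.3, 56.8, 72.7 and 80.7 CPM in the HEV controls. In FRC PEG they were 94.5, 142 and 158 CPM, and in FRC controls 116, 131 and 156. No HEV control reached the lowest FRC control, while HEV PEG 16 and 23 lay within the FRC PEG range. The gene was 1.94-fold lower in HEV in control (log2 -0.95 ± 0.21, SE; adjusted p = 0.0064, edgeR). Under PEG the log2 fold change was -0.69 ± 0.26, with a 95% interval of -1.24 to -0.14, and missed the threshold (adjusted p = 0.062). With all PEG libraries kept it passed with limma-voom (adjusted p = 0.031), with the epithelial marker level added (0.031) and with all 24 libraries in 1 model (0.021). It also passed under PEG without HEV PEG 16 (log2 -0.83; adjusted p = 0.022) or HEV PEG 23 (-0.83; 0.031), the 2 HEV PEG libraries with the highest Slc35b2. In control the call was lost in libraries 10 to 24 alone (log2 -0.86 ± 0.31; adjusted p = 0.12) and in libraries 1 to 9 alone (-0.98 ± 0.31; 0.11). Under PEG, libraries 10 to 24 alone gave a log2 fold change of -0.54 ± 0.31 (adjusted p = 0.26, edgeR). Slc35b3, a second Golgi PAPS transporter and no member of the 7, went the opposite way in control: the HEV controls had 54.7, 102, 118 and 139 CPM, and the FRC controls 16.8, 37.0 and 45.9 as lowest, median and highest. Its log2 fold change was 1.71 ± 0.36 (adjusted p = 0.0046), lost in libraries 1 to 9 alone (0.20), and under PEG it was 1.00 ± 0.36 (0.053).

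Sult1a1, a cytosolic enzyme that sulfates phenols, had the largest positive fold change of the 7. HEV PEG libraries had 240, 342 and 626 CPM as lowest, median and highest, and the HEV controls 320, 333, 468 and 472 CPM. FRC PEG libraries had 15.9, 37.7 and 76.7 CPM, and FRC controls 25.4, 26.8 and 37.4. Every HEV library exceeded every FRC library. The fold change was 14.6 in control (log2 3.87 ± 0.20, SE; adjusted p = 9.6e-08, edgeR), the 46th smallest p of 15743 genes, and 9.07 under PEG (log2 3.18 ± 0.40; adjusted p = 4.0e-05). The FRC PEG libraries ranged 4.83-fold from lowest to highest, against 1.47-fold in the FRC controls. In libraries 10 to 24 alone the log2 fold change was 3.78 ± 0.34 in control (adjusted p = 4.5e-04, edgeR). Under PEG it was 2.67 ± 0.35 there (2.9e-04), and in libraries 1 to 9 alone 3.95 ± 0.29 in control (8.1e-04). Sult1a1 overlaps the gene Slx1b, and the counts carry no strand, so reads of the 2 genes may be mixed; 65480 reads were assigned to Sult1a1 and 7527 to Slx1b over all libraries, and Slx1b averaged 18.3 CPM in HEV PEG, 23.9 in HEV control, 23.5 in FRC PEG and 14.3 in FRC control. The level of Sult1a1 in FRC controls was 7.08% of that in HEV controls. The 10 endothelial markers stood in FRC at 0.23% to 4.21% of their HEV level and the 6 venule markers at 0.66% to 15.8%, the highest being Enpp2, and the part of HEV RNA in the FRC level of Sult1a1 was not tested.

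The promoter of Sult1a1 is shown as that of the gene most raised in HEV. It lies at chr7:126676369-126676668 on the minus strand of GRCm38.p6, around the only start listed.
Sult1a1: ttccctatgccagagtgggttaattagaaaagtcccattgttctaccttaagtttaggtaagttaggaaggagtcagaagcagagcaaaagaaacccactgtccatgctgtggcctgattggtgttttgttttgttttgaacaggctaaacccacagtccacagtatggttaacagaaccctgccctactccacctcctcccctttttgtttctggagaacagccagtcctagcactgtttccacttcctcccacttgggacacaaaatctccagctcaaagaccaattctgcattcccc
It is 46.3% G and C, holds no CpG, and none of the 5 motifs was found in it.

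Tpst1 and Tpst2 are the tyrosylprotein sulfotransferases of the Golgi, which sulfate tyrosines of secreted and membrane proteins, chemokine receptors among them. The pair changed sides between the cell types. Tpst2 had 199, 246 and 284 CPM as lowest, median and highest in HEV PEG, and 259, 283, 284 and 343 CPM in the HEV controls. FRC PEG libraries had 26.9, 41.7 and 86.3 CPM, and FRC controls 18.7, 40.2 and 62.9. No FRC library reached the lowest HEV library. Tpst2 was 7.35-fold higher in HEV in control (log2 2.88 ± 0.26, SE; adjusted p = 9.0e-06, edgeR) and 5.07-fold higher under PEG (log2 2.34 ± 0.24; adjusted p = 6.9e-06). Within HEV its level was the steadiest of the 7, ranging 1.43-fold in HEV PEG and 1.32-fold in HEV control. In libraries 10 to 24 alone the log2 fold change was 2.66 ± 0.38 in control (adjusted p = 0.0037, edgeR). Under PEG it was 2.10 ± 0.28 there (3.1e-04), and in libraries 1 to 9 alone 3.19 ± 0.39 in control (0.0052).

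Tpst1 was close to 0 in HEV. HEV PEG libraries had 0, 0.74 and 10.3 CPM as lowest, median and highest, and the HEV controls 0.57, 3.75, 4.84 and 8.66 CPM. FRC PEG libraries had 156, 241 and 312 CPM, and FRC controls 77.7, 170 and 294. The lowest FRC library stood far above the highest HEV library. HEV PEG 22 had 0 reads among 12658474, which allows up to 0.237 CPM (3 counts, counting error only). Over the whole groups there were 81 reads in the 6 HEV PEG libraries and 273 in the 4 HEV controls, against 28936 in FRC PEG and 19368 in FRC control. The log2 fold change was -5.15 ± 0.78 (SE) in control, 35.5-fold lower (adjusted p = 4.8e-04, edgeR), and -7.61 ± 0.93 under PEG, 196-fold lower (adjusted p = 5.2e-05). Leaving out 1 library moved it between -5.71 and -4.31 in control and between -8.50 and -7.14 under PEG: the least negative control value came without HEV control 8, the most negative PEG value without HEV PEG 16, which held 32 of the 81 reads. In libraries 10 to 24 alone it was -3.69 ± 0.55 in control (adjusted p = 0.0048), and in libraries 1 to 9 alone -6.20 ± 0.98 (0.013). The HEV control level was 2.55% of the FRC control level, and the 10 FRC markers stood in HEV controls at 0.017% to 0.76% of theirs. The smooth muscle and pericyte markers, also high in FRC, varied among the HEV controls: their mean log2(CPM + 1) was 0.77 in HEV control 8, where Tpst1 was lowest, and 3.07 to 4.37 in HEV controls 9, 17 and 24. Their part in the Tpst1 reads was not tested.

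Promoters of the tyrosylprotein sulfotransferases are shown because this pair parts most between the cell types. Tpst2 lies at chr5:112276495-112276794 and Tpst1 at chr5:130073076-130073375, both on the plus strand of GRCm38.p6 and both at the first listed start, of 3 for Tpst2 and 2 for Tpst1.
Tpst2: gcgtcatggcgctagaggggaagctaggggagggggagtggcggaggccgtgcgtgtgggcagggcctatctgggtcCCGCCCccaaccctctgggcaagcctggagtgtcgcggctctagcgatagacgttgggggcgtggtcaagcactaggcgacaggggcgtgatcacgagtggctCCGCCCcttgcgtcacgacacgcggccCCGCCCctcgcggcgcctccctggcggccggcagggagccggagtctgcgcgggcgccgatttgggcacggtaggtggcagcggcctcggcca
Tpst1: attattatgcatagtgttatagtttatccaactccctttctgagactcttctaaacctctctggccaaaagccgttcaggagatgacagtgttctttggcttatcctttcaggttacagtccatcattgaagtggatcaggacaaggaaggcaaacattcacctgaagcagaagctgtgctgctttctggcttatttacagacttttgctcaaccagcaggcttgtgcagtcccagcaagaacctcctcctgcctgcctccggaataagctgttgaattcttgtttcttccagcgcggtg
The Tpst2 window is 72.3% G and C with 33 CpG and 3 GC boxes, and the Tpst1 window is 46.0% G and C with 4 CpG and no GC box. The second Tpst1 start is the richer, at 63.3% with 19 CpG. Neither printed window holds a TATA box, ETS, E-box or AP-1 match, and which start is used in these cells was not measured.

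Read ratios within a library, which do not depend on how libraries are scaled, differed between the cell types for both paralog pairs. Papss2 made up 64.0 ± 11.5% of the summed RPKM of Papss2 and Papss1 in HEV PEG (SD, n = 6), 50.9 ± 16.8% in HEV control (n = 4), 23.0 ± 9.63% in FRC PEG (n = 7) and 16.0 ± 6.19% in FRC control (n = 7). The HEV controls had Papss2 shares of 37.5%, 42.8%, 48.0% and 75.1%, so Papss2 was the larger of the pair in HEV control 9 alone. Tpst2 made up 98.9 ± 2.13% of the Tpst2 and Tpst1 sum in HEV PEG, 98.4 ± 1.04% in HEV control, 15.6 ± 5.44% in FRC PEG and 19.6 ± 12.5% in FRC control. No HEV library overlapped an FRC library of the same treatment in either share. The log2 read ratio of Papss2 to Papss1 was higher in HEV by 2.58 in control (two-sided exact permutation test, p = 0.0030, the smallest that 330 splits allow; adjusted over 8 ratio tests, 0.0061) and by 2.80 under PEG (exact p = 5.8e-04, the smallest that 1716 splits allow; adjusted 0.0023). For Tpst2 to Tpst1 the difference was 8.63 in control and 10.7 under PEG, at the same exact permutation p-values. HEV PEG 22 held 0 Tpst1 reads, so its log2 ratio of 12.7 is set by the pseudocount of 0.5 and by depth. The other HEV PEG ratios of this pair rest on 8 to 32 Tpst1 reads. Read ratios restate the fold changes of the paired genes on a scale free of library size, except where the pseudocount sets them.

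**Figure D3:**
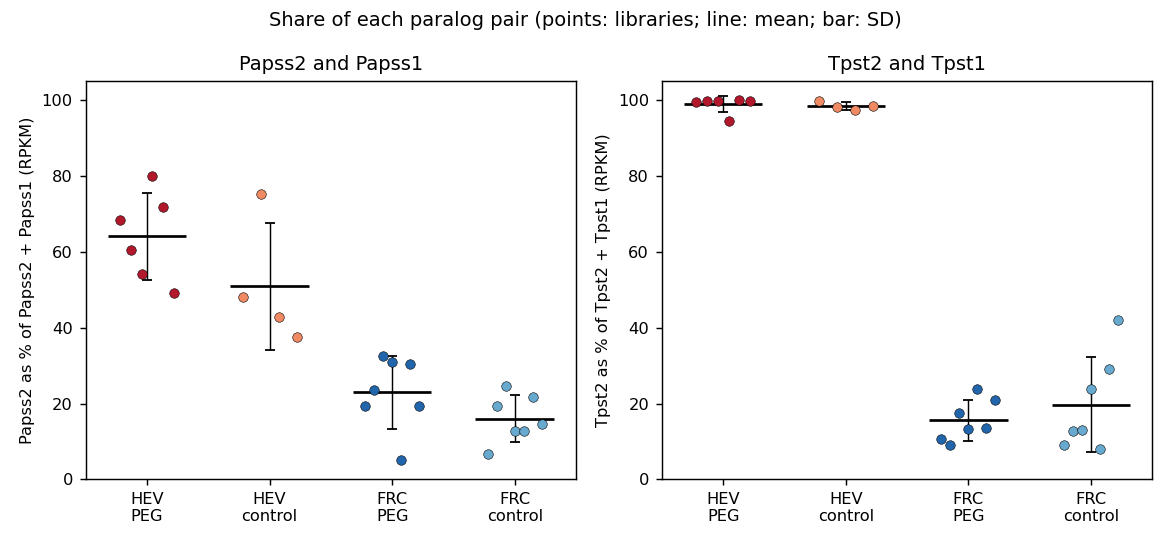
Papss2 as a percentage of the summed RPKM of Papss2 and Papss1 (left), and Tpst2 as a percentage of Tpst2 and Tpst1 (right), in each library, with the mean and SD of HEV PEG, HEV control, FRC PEG and FRC control. The Papss2 share averages 64.0% in HEV PEG, 50.9% in HEV control, 23.0% in FRC PEG and 16.0% in FRC control. The Tpst2 share is at least 94.5% in every HEV library and at most 42.0% in every FRC library.

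The direction of HEV against FRC was the same for each of the 7 genes in every sequencing pool. The 3 pools, inferred from index pairs that recur, each hold all 4 groups, and in each of them Slc26a2, Papss2, Sult1a1 and Tpst2 averaged higher and Papss1, Slc35b2 and Tpst1 lower in HEV, in control and under PEG. The within-pool log2 differences of mean CPM ran from 3.52 to 4.11 for Sult1a1 in control and from 2.41 to 4.58 under PEG. For Tpst2 they ran from 2.53 to 3.10 in control and from 1.83 to 3.00 under PEG. For Papss2 they ran from 1.05 to 2.54 and from 0.95 to 2.28. HEV control 8 and HEV control 9 were each the only HEV control of their pool, and HEV PEG 7 the only HEV PEG library of its pool. HEV control 9 is one of libraries 1 to 9, which stood apart on the first principal component, whereas FRC controls 12 and 13 of its pool are not. The share of all genes with the same direction in every pool was not computed, nor the share with no overlap between HEV and FRC libraries. Both traits therefore describe the 7 genes and do not set them apart from other genes.

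PEG gave no call for any of the 7 genes in either cell type. In HEV 0 of 14308 genes passed at an adjusted p under 0.05 (0%), 886 had an unadjusted p under 0.05 and DESeq2 called 116, and none of the 7 genes was in either set. In FRC 0 of 14595 passed (0%), 989 had an unadjusted p under 0.05 and DESeq2 called 57; of the 7 genes only Tpst1 had an unadjusted p under 0.05. The PEG and control ranges of every gene overlapped in both cell types. The HEV log2 fold changes of PEG over control were -0.50 for Slc26a2, -0.42 for Papss1, 0.27 for Papss2, 0.23 for Slc35b2, -0.15 for Sult1a1, -1.99 for Tpst1 and -0.26 for Tpst2. Leaving out 1 library moved Slc26a2 between -0.94 (without HEV control 8) and -0.065 (without HEV control 9), Papss1 between -0.64 (without HEV control 9) and -0.21 (without HEV PEG 22) and Tpst1 between -3.16 (without HEV control 8) and -0.89 (without HEV PEG 22). In libraries 10 to 24 alone Sult1a1 was -0.69 (unadjusted p = 0.091, adjusted p = 0.75, edgeR) and Tpst1 -4.50 (0.074 and 0.75). There Slc26a2 was -0.72, Papss1 -0.69, Papss2 0.44, Slc35b2 0.17 and Tpst2 -0.35. The 95% intervals bound what 6 against 4 libraries could show. For Tpst2 the interval was -0.68 to 0.15, for Sult1a1 -0.74 to 0.45 and for Papss1 -1.16 to 0.32, whereas for Tpst1, at a few reads per library, it was -6.14 to 2.16.

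In FRC the tightest interval was that of Slc35b2, -0.30 to 0.34 around a log2 fold change of 0.017. Tpst1 had 233 ± 48.3 CPM in FRC PEG and 175 ± 77.4 in FRC control (SD, n = 7 each), with 6 of 7 PEG libraries above the control median, a log2 fold change of 0.53 ± 0.22 and a 95% interval of 0.06 to 1.00 (unadjusted p = 0.029, adjusted p = 0.67, edgeR). Sult1a1 had 42.5 ± 23.2 CPM in FRC PEG and 28.2 ± 4.19 in FRC control (log2 0.56 ± 0.32; adjusted p = 0.80), and 0.35 without FRC PEG 1. In libraries 10 to 24 alone the log2 fold change was 0.87 ± 0.35 (SE) for Sult1a1 (adjusted p = 0.42, edgeR) and 0.78 ± 0.28 for Tpst1 (0.37). In libraries 1 to 9 alone these were 0.14 ± 0.57 and 0.21 ± 0.29 (0.999 for both). Whether the 2 sets differ was not tested. For the other 4 the log2 fold changes were 0.57 for Slc26a2, -0.13 for Papss1, 0.47 for Papss2 and 0.28 for Tpst2, with intervals that held 0. Whether PEG acted unlike in the cell types was tested as an interaction, which passed for 2 of 18203 genes (0.011%), neither of them one of the 7. The interaction was largest for Tpst1 (log2 -2.51 ± 1.06, SE; 95% interval -4.71 to -0.30; unadjusted p = 0.028, adjusted p = 0.42), which rests on the few HEV reads of that gene. In libraries 10 to 24 alone the interaction was -3.93 ± 1.44 for Tpst1 (unadjusted p = 0.018, adjusted p = 0.40, edgeR). For Sult1a1 it was -1.30 ± 0.50 there (0.020 and 0.40). The 2 paralog ratios gave adjusted exact permutation p-values of 0.30 to 0.60 for PEG against control, with log2 differences of 0.80 in HEV and 0.57 in FRC for Papss2 to Papss1. That ratio reached an unadjusted exact permutation p of 0.036 in HEV without HEV control 9 (1.30) and of 0.016 in FRC without FRC PEG 11 (0.96). Each was the largest difference among the fits leaving out 1 library, so these p-values are picked extremes and not tests of their own.

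**Figure D4:**
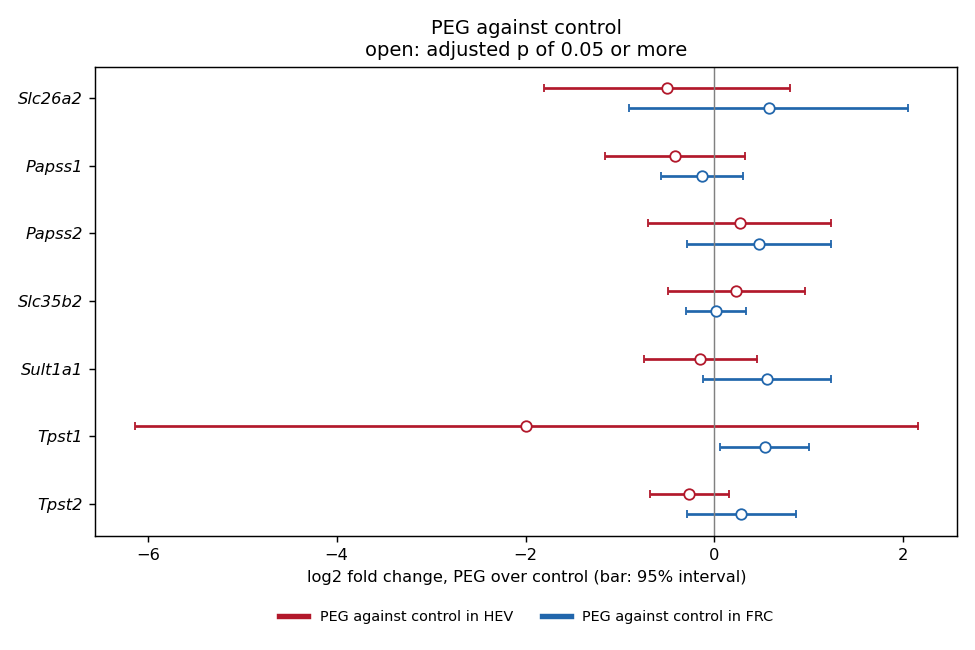
Log2 fold change of PEG over control for each gene in HEV (upper mark) and FRC (lower mark), with 95% confidence intervals. All marks are open, as none has an adjusted p under 0.05; the interval of Tpst1 in HEV is the widest, from -6.14 to 2.16.

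Around these enzymes, 9 lists of other sulfation genes were compared, of which 1 also holds Sult1a1. Of all genes tested, 10.6% were higher and 13.9% lower in HEV control, and 12.5% and 14.4% under PEG, which is the background for every list. Among 14 sulfatases and their activators, 4 were lower and none higher in HEV control, against that 13.9% and 10.6%. Sulf2, which removes sulfate from heparan sulfate outside the cell, had 2.73 ± 3.74 CPM in HEV control (SD, n = 4) and 97.7 ± 28.1 in FRC control (n = 7; log2 -5.48 ± 1.00, SE; adjusted p = 0.0017, edgeR). The control call of Sulf2 was lost in libraries 1 to 9 alone (adjusted p = 0.15, edgeR). Arsi and Arsj, members of the arylsulfatase family, had 0 reads in the 4 HEV controls, against 26.6 ± 12.3 and 28.3 ± 17.8 CPM in FRC control, at least 530-fold and 598-fold lower in HEV (set against 3 counts over the group). The fourth was Arsb, at 3.10 ± 5.01 CPM in HEV and 31.2 ± 12.5 in FRC (adjusted p = 0.024), lost in libraries 10 to 24 alone and without HEV control 8, 9 or 24 (adjusted p of 0.052 to 0.20). Under PEG 6 of the 14 were lower, against 14.4% of all genes, led by Sulf2 (2.36 ± 1.54 CPM in HEV, 72.7 ± 18.2 in FRC) and Arsj (0 reads in HEV, at least 941-fold lower). The list median was -0.73 in control and -0.83 under PEG.

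Among enzymes that sulfate glycosaminoglycans, both lists held members that moved in either direction. Of 9 heparan sulfate sulfotransferases tested of 15 listed, 2 were higher in HEV control (10.6% of all genes), the N-sulfotransferase Ndst3 (20.2 ± 13.3 CPM in HEV, 0.62 ± 1.07 in FRC; log2 5.55 ± 1.11, adjusted p = 0.0032, edgeR) and Hs3st1 (111 ± 4.27 in HEV, 58.8 ± 19.0 in FRC; 1.00 ± 0.28, 0.019). In libraries 10 to 24 alone both calls were lost (adjusted p = 0.13 for Ndst3 and 0.12 for Hs3st1), as they were in libraries 1 to 9 alone (0.068 and 0.16), and Hs3st1 was also lost without HEV control 8 (0.085) or FRC control 21 (0.056). The 2 lower (13.9% of all genes) were Hs3st3a1, with 1 read in HEV and 875 in FRC controls, 489-fold fewer per read sequenced (95% interval of the counts, 87.5 to 19319), and Hs6st1 (16.6 ± 11.0 CPM in HEV, 34.3 ± 20.8 in FRC; adjusted p = 0.029), which passed in 11 of 23 alternatives. The control call of Hs3st3a1 was lost in libraries 1 to 9 alone (adjusted p = 0.074, edgeR). Under PEG only Hs3st3a1 passed, at 0.061 ± 0.13 CPM in HEV and 15.5 ± 5.05 in FRC. Of 7 chondroitin and dermatan enzymes tested of 9 listed, Chst11, which sulfates chondroitin, was higher in HEV control (27.9 ± 20.0 CPM in HEV, 5.96 ± 3.14 in FRC; adjusted p = 0.025, passing in 16 of 23 alternatives). The epimerase Dse (1.84 ± 1.13 in HEV, 87.9 ± 19.0 in FRC; adjusted p = 2.9e-06) and Ust (0.082 ± 0.087 in HEV, 2.93 ± 2.32 in FRC; adjusted p = 0.019) were lower. Ust passed in 17 of 22 alternatives and was lost without HEV control 8 (adjusted p = 0.057) or 9 (0.071), among others. Under PEG 2 of 6 tested, Chst11 (passing in 18 of 23 alternatives) and Chst15 (15 of 23), were higher and Dse was again lower, at 2.51 ± 2.03 CPM in HEV and 81.5 ± 43.0 in FRC, while Chst11 had 15.5 ± 13.9 in HEV and 9.46 ± 14.1 in FRC (log2 1.89 ± 0.57, adjusted p = 0.023; 0.57 with no pool covariate).

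Of 5 sulfotransferases of selectin ligands and keratan sulfate tested of 12 listed, none passed in control. Chst1 passed under PEG, with 51.2 ± 25.6 CPM in HEV PEG (SD, n = 6) and 4.74 ± 4.99 in FRC PEG (n = 7; log2 3.61 ± 1.14, SE; adjusted p = 0.031, edgeR). The call was lost without HEV PEG 7 (adjusted p = 0.054) or FRC PEG 10 (0.054), 11 (0.085) or 19 (0.053). In control Chst1 had 40.9 ± 20.7 CPM in HEV and 14.4 ± 11.8 in FRC (log2 1.29 ± 0.70; adjusted p = 0.22). Chst4, the venule sulfotransferase of L-selectin ligands, fell under the filter on low counts. It is outside the naming rule and was picked out after its values were seen: the HEV controls had 0.063, 0.17, 5.52 and 5.91 CPM, and the FRC controls together held 3 reads.

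Cytosolic sulfotransferases other than Sult1a1 were mostly too low to test, with 4 of 12 tested in control, Sult1a1 among them. Sult5a1 had 1 read in HEV and 2366 in FRC controls, 1321-fold fewer per read sequenced (95% interval of the counts, 237 to 52202; adjusted p = 4.7e-04, edgeR). The control call of Sult5a1 was lost in libraries 1 to 9 alone (adjusted p = 0.072, edgeR). Under PEG Sult5a1 was again lower, at 0.013 ± 0.032 CPM in HEV and 22.6 ± 11.5 in FRC. Of 10 genes of cysteine and sulfide breakdown or of clearing the spent donor, 1 was higher and 1 lower in HEV control. Cdo1, the cysteine dioxygenase, had 4.05 ± 3.87 CPM in HEV and 0.63 ± 1.40 in FRC (adjusted p = 0.044, edgeR), and passed in 6 of 21 alternatives. Tst, a mitochondrial sulfurtransferase, had 0.94 ± 1.70 in HEV and 29.4 ± 13.5 in FRC (adjusted p = 0.016). Its call was lost in libraries 10 to 24 alone (adjusted p = 0.094, edgeR). Under PEG 1 was higher, Csad (adjusted p = 0.042), which passed in 10 of 23 alternatives and 4 were lower, led by the transaminase Got1 (16.0 ± 6.97 CPM in HEV, 41.2 ± 15.3 in FRC; log2 -1.48 ± 0.35) and the sulfide oxidase Sqor (62.5 ± 30.9 in HEV, 130 ± 58.3 in FRC; -1.22 ± 0.32). Of 4 tested of 6 further sulfate and PAPS transporters, Slc35b3 was the only one to pass in control, and none passed under PEG.

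Proteins that carry the modifications were split between the cell types. Of 14 proteins known to carry sulfated tyrosines tested of 16 listed, 2 were higher in HEV control (10.6% of all genes): the atypical chemokine receptor Ackr1 (2069 ± 588 CPM in HEV, 13.3 ± 23.1 in FRC; log2 8.05 ± 1.26, adjusted p = 0.0011, edgeR) and the sphingosine phosphate receptor S1pr1 (359 ± 86.0 in HEV, 1.57 ± 1.42 in FRC; adjusted p = 9.9e-05). The 7 lower ones (13.9% of all genes) were led by complement C4b (0.31 ± 0.22 CPM in HEV, 511 ± 127 in FRC), fibronectin Fn1 (1.41 ± 1.16 in HEV, 889 ± 267 in FRC) and fibromodulin Fmod, with 1 read in HEV and 4631 in FRC controls. C4b has a near-identical paralog, so its reads may be shared. Under PEG 2 were higher and 8 lower (12.5% and 14.4% of all genes), led by lumican Lum (0.79 ± 1.07 CPM in HEV, 2012 ± 302 in FRC) and C4b (0.56 ± 0.85 in HEV, 576 ± 115 in FRC). All 5 mucins known to carry sulfated ligands in venules were higher in HEV control. Madcam1 had 9368 ± 2087 CPM in HEV and 78.5 ± 46.1 in FRC, Glycam1 5182 ± 2283 in HEV and 34.3 ± 63.5 in FRC, and Cd34 718 ± 227 in HEV and 306 ± 69.1 in FRC. In libraries 10 to 24 alone the calls of Glycam1 (adjusted p = 0.12) and Podxl (0.16) were lost, and that of Podxl also without HEV control 8 (0.052). All 5 passed again under PEG, where Madcam1 had 8395 ± 2264 CPM in HEV and 42.4 ± 19.0 in FRC, and Podxl 92.4 ± 30.3 in HEV and 0.19 ± 0.48 in FRC. Several of these are markers of the sorted cell types. No gene of the 9 lists passed for PEG against control in either cell type.

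**Figure D5:**
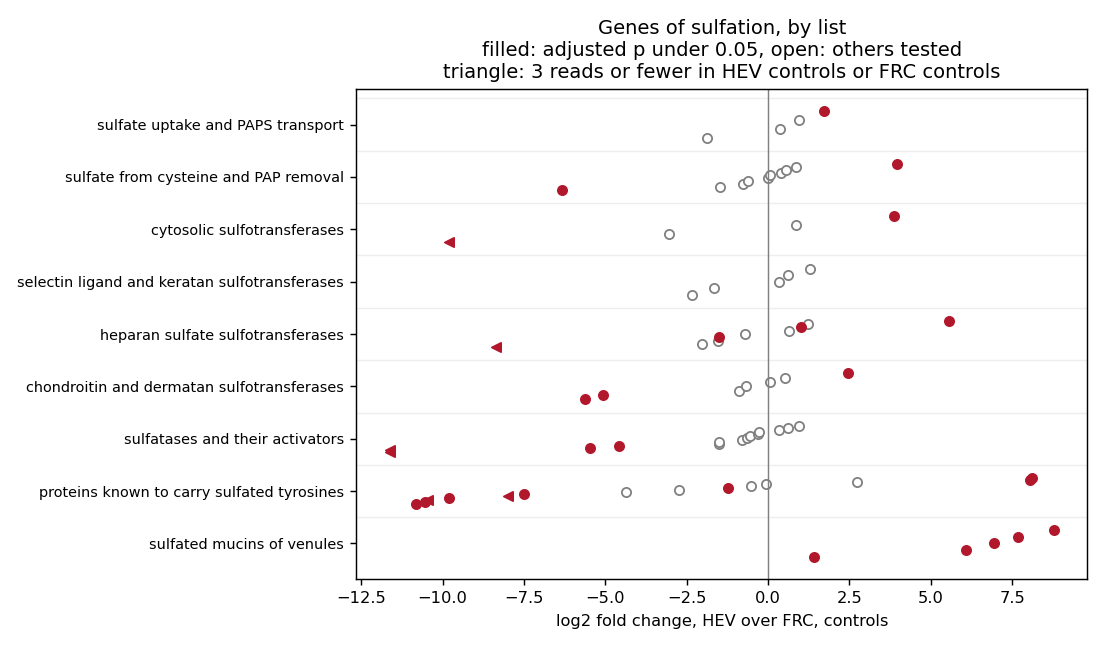
Log2 fold change of HEV over FRC in control for each tested gene of the 9 lists, filled where the adjusted p is under 0.05. Sulfatases that passed all lie to the left of 0 and the 5 mucins all to the right, and triangles mark genes with at most 3 reads in HEV controls or FRC controls, whose fitted fold change is no bound.

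The genes whose log2(CPM + 1) followed each member most closely across the 24 libraries were sought among 11864 genes with a mean of at least 5 CPM. For Tpst1 they were Pdgfrl (Pearson r = 0.98), Cxcl12 (0.97) and Cdh11 (0.97). For Tpst2 they were Pdgfb (0.97), Jam2 (0.96) and Ehd4 (0.96), and for Sult1a1 Ms4a6b (0.97), Jam2 (0.96) and Mfng (0.96). Slc35b2 was nearest to Ednrb (0.88), Kirrel (0.88) and Thbs2 (0.88), and Papss1 to Ctsf (0.86), Dmpk (0.85) and Frmd6 (0.85). Papss2 was nearest to Pcdh1 (0.84), Rbm47 (0.84) and Pdk4 (0.84), and Slc26a2 to Arf2 (0.80), Gpcpd1 (0.80) and Myd88 (0.80). These values describe 24 libraries that share their cell type, treatment and pool, and carry no p.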

How the data were processed

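Reads were aligned with GSNAP to mm9, per the submitters' processing notes (the labels' protocol names GRCh37), after low-quality, rRNA and adapter reads were removed with HTSeqGenie, per the labels. The deposited counts are reads that align uniquely to a gene model, per the file headers, and the deposited RPKM are adjusted by the authors' size factors. Reference tables gave a symbol for 85.0% of the gene IDs, which hold 97.3% of the reads.

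Counts were tested here with edgeR 4.0.16 in R 4.3.3 (quasi-likelihood test, TMM scaling, filterByExpr with a count minimum of 10), with the sequencing pool (libraries 1 to 8, 9 to 16, 17 to 24, inferred from recurring index pairs) as a covariate. Benjamini-Hochberg adjustment ran over all genes tested, with a threshold of 0.05, and the script was tested on simulated data. DESeq2 1.42.0 and limma 3.58.1 (voom) were alternatives. Read ratios used a pseudocount of 0.5 and exact permutation tests. P-values measure the spread between libraries, each from 1 mouse per the labels.

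The 7 genes and the lists were chosen with earlier results of these data known. Of each list, up to 3 called genes per direction are named by smallest p in control, and up to 2 in the other comparisons. Arsb, Csad, Chst15 and Chst4 lie outside this rule and were named after their values were seen. CPM and RPKM are from unstranded counts. Intervals on read counts cover counting error only.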

Additional observations from a re-analysis of the deposited data

Results flagged for a closer look

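Of 28 groups of libraries, 7 genes in 4 groups each, 3 held a library far from the others of its group by Dixon's criterion. For normally distributed values chance gives this in about 1 of 20 groups. The criterion was applied to CPM and not to log2 values, and CPM need not be normally distributed, so that rate may not hold here. Slc26a2 was 130 CPM in HEV PEG 7, and the next HEV PEG library had 43.8 CPM and the lowest 7.27. Sult1a1 was 37.4 CPM in FRC control 20, where the next FRC control had 28.5 CPM and the lowest 25.4. That library also had the highest endothelial marker level of the FRC libraries, 3.83 as mean log2(CPM + 1), and the part of this in its Sult1a1 was not tested. Tpst1 was 10.3 CPM in HEV PEG 16, from 32 reads, where the next HEV PEG library had 1.04 CPM and the lowest 0. HEV PEG 16 was the shallowest library, with 3115003 reads, and had the highest FRC marker level of the HEV PEG libraries, 1.50; their part in its Tpst1 was not tested.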

How the results depend on the processing

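Sult1a1, Tpst1 and Tpst2 passed in both HEV and FRC comparisons under every alternative that was run for them. In control 6 of the 7 genes and 3850 of 15743 genes were called. In libraries 10 to 24 alone 3 of the 7 were called, with 2276 of 16924 genes. In libraries 1 to 9 alone with no pool covariate 3 were called, with 1477 of 15262 genes. Leaving out 1 library gave 5 to 6 of the 7 in control, with 3121 (of 16524) to 3791 (of 15538) of all genes. Under PEG it gave 4 to 7, with 3448 (of 14620) to 3941 (of 15476) of all genes. In libraries 10 to 24 alone the control ratios were 1.92 for Papss2 to Papss1 and 7.34 for Tpst2 to Tpst1 (exact permutation p = 0.067, the smallest possible there). Leaving out 1 library, the PEG minus control difference of Papss2 to Papss1 was 0.53 to 1.30 in HEV and 0.35 to 0.96 in FRC, and that of Tpst2 to Tpst1 in FRC was -0.46 to 0.044.

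Papss1 in control passed with DESeq2 (adjusted p = 0.035) and with all 24 libraries in 1 model (0.045), and Slc26a2 under PEG was lost with no covariate (0.11) and in that model (0.057). For PEG against control no member was called, and small values changed sign. In HEV these were Sult1a1 with the i5 index added (0.066), Papss2 (-0.096) and Slc35b2 (-0.057) with the epithelial level added, and, leaving out 1 library, Papss2 (-0.097 to 0.51) and Sult1a1 (-0.33 to 0.046). In FRC they were Slc35b2 with the submitters' size factors (-0.0085), in libraries 10 to 24 alone (-0.0094) and leaving out 1 library (-0.044 to 0.092), Papss2 with the epithelial level (-0.11), and Slc26a2 in libraries 10 to 24 alone (-0.24). The difference of the PEG effect for Papss2 was 0.25 with the i5 index, 0.086 with the epithelial level, 0.49 in libraries 10 to 24 alone and -0.60 to 0.33 leaving out 1 library. The cause of these changes was not tested.

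Genes called in control were 3850, against 2276 in libraries 10 to 24 alone, 1477 in libraries 1 to 9 alone with no pool covariate and 6814 averaged over both treatments. For PEG in HEV, 0 became 141 with no filter on low counts, 116 with DESeq2 and 18 with all 24 libraries, and in FRC 0 became 177 with no filter and 57 with DESeq2. For the difference of the PEG effect, 2 became 0 with limma-voom, with the i5 index or in libraries 10 to 24 alone, 5 with no covariate, 38 with no filter, 350 with DESeq2 and 1 to 16 leaving out 1 library. Averages over both treatments and alternatives for list genes were chosen after seeing the data. The i5 index could not be fitted for HEV against FRC under PEG. No paired analysis was possible because the library numbers 1 to 24 are unique, so the groups share no replicate number.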
